A study of Homo sapiens with 8 samples.

Results

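The genes of DNA replication and S phase were described as a set of 44 symbols, matched exactly to the gene symbols of the authors' deposited table, which holds 19718 coding genes. Each of the 44 symbols occurred once, and 44 of 44 passed the filter on low values, at least 1 FPKM in at least 2 of the 8 libraries, as did 11255 genes in all. FPKM counts sequenced fragments per length of transcript and per size of library. By role the set holds 10 licensing genes, 8 genes that activate the helicase, 7 polymerase and primase subunits and 3 E2F genes. It also holds 10 genes of the sliding clamp, its loaders, flap processing and single-strand binding, and 6 of histone supply, chromatin and repair.

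RNA sequencing libraries of 4 groups, 2 in each, were compared, all from cultured human leukemia blasts in RPMI1640 with 20% FBS. HEL92.1.7 is an established cell line that the labels class as secondary acute myeloid leukemia, and it is called parental here. HEL OTX P/R, called P/R here, is its persister-resistant derivative, made resistant to OTX015, a BET inhibitor. Each line was left untreated or given 1000 nM OTX015 for 8 hours, and the labels name no other agent and no engineered allele. P/R is 1 derived line; neither its clonality nor its time off the drug before the untreated harvest is stated by the labels. Replicate cultures are described as biologic and as treated separately.

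Replication is prepared in G1, when ORC, CDC6 and CDT1 load the ring of MCM2 to MCM7 onto origins, a step called licensing. At S phase entry the kinase CDC7 with DBF4, MCM10, CDC45 and the GINS complex turn the ring into a moving helicase, polymerase alpha and primase start each strand, and polymerases epsilon and delta extend it on the PCNA clamp that RFC loads. E2F1 and E2F2 activate many of these genes, E2F7 represses them, and in blood cell leukemias the same genes mark cells that cycle.

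Pearson correlations of log2 values across tested genes were 0.996 to 0.997 within a group and 0.959 to 0.985 between groups. Sequencing depth is unknown, because each library sums to the same 678133 FPKM after the authors' quantile normalization, so a change shared by most genes cannot be seen and the spread between replicates may be understated. The 11 erythroid and megakaryocyte markers checked were at or above 1 FPKM in 8 of 8 libraries. At least 4 of 5 lymphocyte markers, 4 of 5 monocyte and granulocyte markers and 5 of 5 epithelial and stromal markers stayed below 1 FPKM in all 8 libraries, and the exceptions were CD79A and LYZ. In libraries from whole cultures, fewer cells in S phase and less RNA per cell cannot be told apart.

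OTX015 moved the replication genes in both directions and by small amounts. In parental cells 18 of 44 rose (40.9%) and 11 fell (25.0%), where 25.7% of all tested genes rose and 24.7% fell (limma on log2 of FPKM plus 1, Benjamini-Hochberg adjusted p under 0.05 over all 11255 genes, two-sided). In P/R cells 19 of 44 rose (43.2%) and 7 fell (15.9%), against 22.5% and 21.8% of all tested genes. In either direction, 50.4% of all tested genes passed in parental and 44.3% in P/R cells. Treated parental libraries lay wholly above the untreated ones for 24 members (54.5%, against 39.2% of all tested genes) and wholly below for 14 (31.8%, against 36.4%). Treated P/R libraries lay wholly above for 26 (59.1%, against 37.8%) and wholly below for 8 (18.2%, against 34.9%). The median log2 change of the 44 was 0.13 in parental and 0.10 in P/R cells, beside 0.02 and 0.01 over all tested genes. No more than 4 of 44 members reached a log2 change of 0.5 in size in either line (9.09%), compared with 20.5% of all tested genes in parental and 16.4% in P/R cells. With 2 libraries against 2, an exact permutation test of a single gene cannot go below p = 0.333, so every call rests on the spread pooled over genes and groups.

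Most members that passed in one line passed in the same direction in the other, and no member passed the test of a difference in response. Of the 44, 15 rose in both lines, 7 fell in both, 0 moved in opposite directions and 11 passed in neither. The 15 are 83.3% of the parental rises and 78.9% of the P/R rises, and the 7 are 63.6% of the parental falls and 100% of the P/R falls. Over all tested genes the same shares were 72.3% and 82.5% for rises and 73.9% and 83.7% for falls. For the difference in response itself, limma called 0 of 44 members and 9 of 11255 genes (0.08%; 0.0622% with a higher and 0.0178% with a lower change in P/R cells), and at an unadjusted p under 0.05 it gave 4 members (9.09%) beside 9.60% of all tested genes. These 4 were CDC6, PRIM1, DSCC1 and LIG1, and the lowest adjusted p among the 44 was 0.385, for CDC6. The 95% interval of a difference reached 0.204 to either side for the median member and 0.702 for the widest, PRIM2, before adjustment over all genes. On simulated data the same test recovered 3% of planted differences of 0.25 and 62% of those of 0.5, so differences of that size could be missed.

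**Figure D1:**
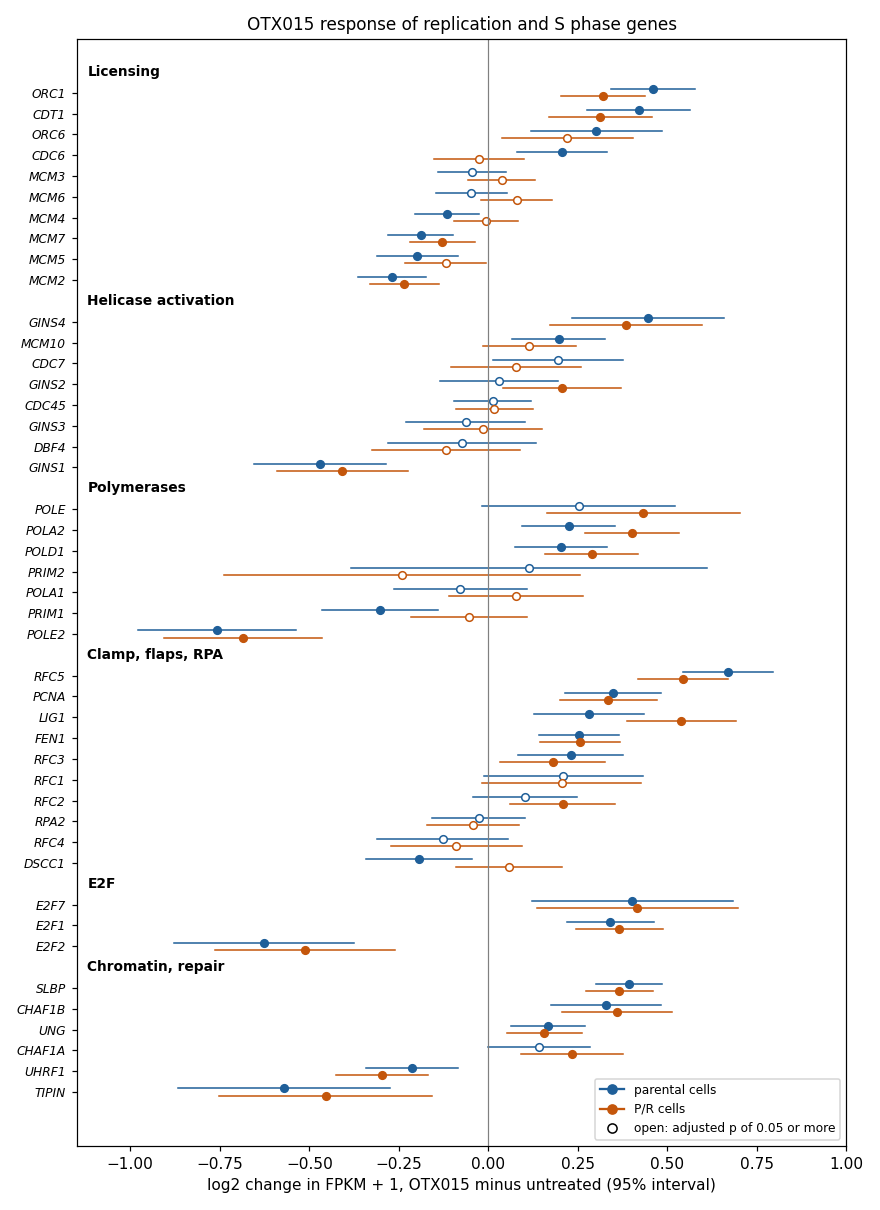
Log2 change in FPKM plus 1 under OTX015 (x axis) for the 44 genes (y axis), grouped by role, in parental (blue) and P/R (orange) cells, with 95% intervals from the limma fit; filled points passed at an adjusted p under 0.05. Most points lie within 0.5 of zero, the 2 colours fall on the same side of zero for 38 of 44 genes, and each role except clamp genes in P/R cells holds passing genes on both sides.

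Promoter sequences are shown for 6 members that moved the same way in both lines, 4 that rose and 2 that fell, to let the upstream DNA of genes that parted under the drug be read side by side. They were picked after the values and the motif matches had been seen. Each is the stretch of 250 bases before the start of the gene in RefSeq annotation of GRCh38.p14, 5′ to 3′ on the gene's own strand. Capitals mark 3 motifs searched on both strands: the E2F motif as TTTCCCGC or TTTGGCGC, the E-box CACGTG bound by MYC and related factors, and CCAAT, bound by NF-Y. GCGGGAAA and ATTGG are TTTCCCGC and CCAAT read on the other strand, and none of these motifs lies within another.
CDT1, rose, chr16:88803539-88803788, plus strand: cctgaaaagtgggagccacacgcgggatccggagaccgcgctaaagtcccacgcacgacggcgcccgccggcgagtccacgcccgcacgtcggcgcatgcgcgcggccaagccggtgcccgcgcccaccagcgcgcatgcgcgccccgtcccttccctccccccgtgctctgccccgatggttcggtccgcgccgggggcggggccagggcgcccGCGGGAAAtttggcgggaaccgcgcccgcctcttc
LIG1, rose, chr19:48170345-48170594, minus strand: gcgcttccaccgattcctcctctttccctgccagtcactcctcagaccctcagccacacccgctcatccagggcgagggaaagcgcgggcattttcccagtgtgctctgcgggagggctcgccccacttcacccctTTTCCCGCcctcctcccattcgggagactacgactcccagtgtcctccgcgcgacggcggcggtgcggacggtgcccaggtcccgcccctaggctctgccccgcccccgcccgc
E2F1, rose, chr20:33686386-33686635, minus strand: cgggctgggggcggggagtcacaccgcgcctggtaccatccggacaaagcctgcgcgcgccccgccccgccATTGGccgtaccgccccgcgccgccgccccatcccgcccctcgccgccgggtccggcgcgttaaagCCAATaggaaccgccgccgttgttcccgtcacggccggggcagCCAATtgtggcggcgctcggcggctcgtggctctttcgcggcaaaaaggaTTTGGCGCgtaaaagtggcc
RFC5, rose, chr12:118016453-118016702, plus strand: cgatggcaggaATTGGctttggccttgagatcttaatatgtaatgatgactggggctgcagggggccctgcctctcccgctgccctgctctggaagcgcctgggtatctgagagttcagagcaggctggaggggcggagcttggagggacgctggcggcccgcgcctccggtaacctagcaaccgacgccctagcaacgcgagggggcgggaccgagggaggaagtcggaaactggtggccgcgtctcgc
E2F2, fell, chr1:23531234-23531483, minus strand: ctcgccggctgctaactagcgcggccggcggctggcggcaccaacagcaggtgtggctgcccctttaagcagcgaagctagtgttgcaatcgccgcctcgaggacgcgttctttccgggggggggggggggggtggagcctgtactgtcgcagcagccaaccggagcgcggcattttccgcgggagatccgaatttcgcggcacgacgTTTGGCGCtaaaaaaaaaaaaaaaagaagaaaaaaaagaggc
MCM2, fell, chr3:127598161-127598410, plus strand: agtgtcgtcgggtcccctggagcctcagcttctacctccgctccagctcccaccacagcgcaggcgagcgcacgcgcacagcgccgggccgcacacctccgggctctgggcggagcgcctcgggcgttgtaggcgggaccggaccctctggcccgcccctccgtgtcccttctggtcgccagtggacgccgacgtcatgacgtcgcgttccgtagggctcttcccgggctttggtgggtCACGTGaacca
An E2F motif stands in the windows of CDT1, LIG1 and E2F1, which rose, and of E2F2, which fell. RFC5 has a CCAAT and no match to the 2 E2F forms, and MCM2 has an E-box alone. These 6 do not mirror the shares over all matched members in the longer windows described next. There 5 of 14 that rose in both lines had an E2F motif, and 6 of 7 that fell in both, all but MCM2.

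Over windows of 300 bases, from 250 before to 50 after each start, 39 of 44 members were matched in the RefSeq table. MCM4, MCM5, GINS4, DSCC1 and RPA2 were not matched. The E2F motif was in 19 of 39 members (48.7%), in 4.83% of the 8690 tested genes with a window and in 2.75% of all 27305 genes of that table. Among members that rose in both lines 5 of 14 had it (35.7%), among those that fell in both 6 of 7 (85.7%), and among those that passed in neither 5 of 10 (50%). A gene with several starts counted once if any window matched; by window the shares were 29.4% of 17, 50% of 12 and 35.7% of 14. The motif stood on both sides of the response. The E-box was in 5 of 39 members (12.8%) and in 13.1% of tested genes, and CCAAT in 22 of 39 (56.4%) and in 43.7%. These are descriptions of letters in a window, made after the expression results were known.

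Among the licensing genes of the set, the rises under OTX015 were in the loaders and the falls in the ring that they load. In P/R cells the loaders that passed were ORC1 and CDT1 alone. Of ORC, the set holds only ORC1 and ORC6, so the split does not describe the whole complex. Outside the set, ORC2 and ORC5 had lower means under the drug in both lines, and ORC3 and ORC4 had higher ones. The largest rise among the licensing members was that of ORC1, the ATPase subunit of the origin recognition complex. It read 36.9 and 36.3 FPKM in untreated and 52.0 and 49.5 FPKM in treated parental libraries. In P/R cells ORC1 read 35.8 and 36.0 FPKM untreated and 44.7 and 45.4 FPKM under the drug. Treated and untreated libraries did not overlap in either line, and ORC1 rose 1.39-fold in parental cells (log2 0.46, SE 0.052, limma adjusted p = 9.97e-05) and 1.26-fold in P/R cells (log2 0.32, adjusted p = 0.00107).

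CDT1, which brings the MCM ring to origins and is destroyed once S phase begins, rose from 131 and 116 FPKM to 169 and 162 FPKM in parental cells. CDT1 read 124 and 126 FPKM in untreated P/R cells and 163 and 149 FPKM treated. Both treated pairs lay above both untreated pairs, with log2 changes of 0.42 (SE 0.064, limma adjusted p = 0.000578) and 0.31 (adjusted p = 0.00366).

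ORC6, the smallest subunit of the origin recognition complex, went from 24.5 and 25.6 FPKM to 31.4 and 30.8 FPKM in parental cells, a rise of 0.30 on the log2 scale (limma adjusted p = 0.0125). In P/R cells ORC6 stood at 20.9 and 22.2 FPKM before and 23.3 and 27.5 FPKM after, and did not pass (limma adjusted p = 0.0520). It did pass there with the filter set at a mean of at least 5 FPKM, and with a replicate block. The P/R pairs did not overlap either, and the 2 treated P/R libraries lay farther apart than any other ORC6 pair.

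CDC6, the ATPase that closes the MCM ring on DNA with ORC, was at 40.6 and 42.0 FPKM in untreated and 47 and 48.5 FPKM in treated parental libraries. CDC6 was at 26.2 and 26.1 FPKM in untreated P/R cells and at 26.3 and 25.1 FPKM treated. It rose in parental cells (log2 0.21, limma adjusted p = 0.0127) and was level in P/R cells (log2 -0.03, adjusted p = 0.738), but the difference of the 2 responses, -0.23 with a 95% interval of -0.41 to -0.05, did not pass after adjustment. The parental rises of ORC6 and CDC6 each failed in 2 of 16 alternative settings, each time with 1 parental library left out, at adjusted p up to 0.0656 and 0.0797.

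None of the 6 ring subunits MCM2 to MCM7 rose in either line. In parental cells 4 of 6 fell, with a median log2 change of -0.15, and in P/R cells 2 of 6 fell, with a median of -0.06, where 24.7% and 21.8% of all tested genes fell. The P/R count is near that share. MCM2 was the member of the ring with the largest fall, from 193 and 193 FPKM to 161 and 159 FPKM in parental cells and from 172 and 176 FPKM to 151 and 144 FPKM in P/R cells. Its log2 changes were -0.27 (SE 0.042, limma adjusted p = 0.000702) and -0.23 (adjusted p = 0.00189), and no treated library reached an untreated one of its line.

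MCM7 fell from 197 and 203 FPKM to 177 and 174 FPKM in parental cells, a log2 change of -0.19 (limma adjusted p = 0.00392). In P/R cells MCM7 went from 174 and 174 FPKM to 162 and 156 FPKM (log2 -0.13, adjusted p = 0.0286), a call lost in 4 of 16 alternative settings, at adjusted p up to 0.126, including without either untreated or without the second treated P/R library. Treated P/R libraries were the lowest of the 8 for both MCM2 and MCM7.

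MCM5 read 240.4 and 233 FPKM in untreated and 206 and 206 FPKM in treated parental libraries, and 223 and 225 FPKM against 216 and 196 FPKM in P/R cells. It fell in parental cells (log2 -0.20, limma adjusted p = 0.00919; 0.0564 without untreated library 1) and did not pass in P/R cells (log2 -0.12, adjusted p = 0.0811). The treated P/R pair spread from below to above the treated parental pair.

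MCM4 had the highest level per length of the 44 genes in untreated parental cells, 324 and 337 FPKM, and 301 and 309.7 FPKM after OTX015. MCM4 read 287 and 289 FPKM in untreated P/R cells and 282 and 292 FPKM treated. The parental fall of 0.12 on the log2 scale passed narrowly (limma adjusted p = 0.0363) and was lost in 7 of 16 alternative settings, among them leaving out either treated parental library, at adjusted p up to 0.182.

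MCM3 and MCM6 did not pass in either line. MCM3 stood at 138 and 133 FPKM untreated and 132 and 129.9 FPKM treated in parental cells, and at 112 and 114 FPKM against 117 and 115 FPKM in P/R cells. MCM6 stood at 90.7 and 88.8 FPKM against 85.3 and 88.3 FPKM in parental cells, and at 82.9 and 82.9 FPKM against 87.0 and 88.3 FPKM in P/R cells. The log2 changes of both lay between -0.05 and 0.08.

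**Figure D2:**
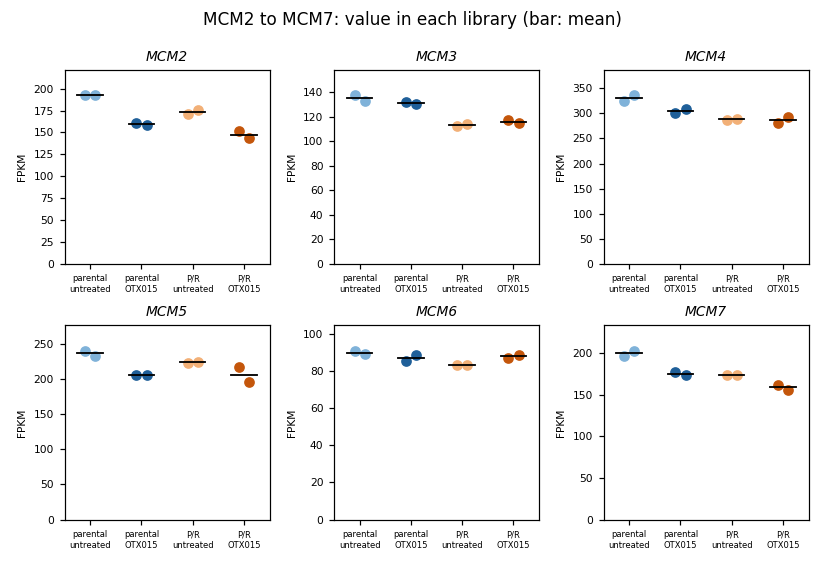
FPKM (y axis, from 0) of MCM2 to MCM7 in each of the 8 libraries, by group (x axis), with the group mean as a bar. MCM2 and MCM7 step down with the drug in both lines. For all 6 genes both untreated P/R libraries lie below both untreated parental ones, as for 33.0% of all tested genes. Of the 6, MCM2, MCM3, MCM4 and MCM7 passed that comparison.

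The genes that activate the helicase were split within a single complex. GINS has 4 subunits that work together, and under OTX015 GINS4 rose while GINS1 fell, in both lines. GINS4 read 31.5 and 38.7 FPKM in untreated and 46.8 and 49.1 FPKM in treated parental cells, and 30.1 and 32.9 FPKM against 43.3 and 39.6 FPKM in P/R cells. Its rises were 1.37-fold (log2 0.45, SE 0.094, limma adjusted p = 0.00367) and 1.32-fold (log2 0.39, adjusted p = 0.00913). Untreated and treated GINS4 libraries did not overlap, though the P/R call failed without P/R untreated library 1 or treated library 1, at adjusted p up to 0.0658.

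GINS1 dropped from 15.2 and 16.6 FPKM to 11.3 and 11.1 FPKM in parental cells and from 13.2 and 12.9 FPKM to 9.04 and 10.1 FPKM in P/R cells. It fell by 0.47 on the log2 scale in parental cells (SE 0.082, limma adjusted p = 0.00124) and by 0.41 in P/R cells (adjusted p = 0.00332) and passed in each of 16 alternative settings in both lines, none of which set a minimum change. GINS2 passed as higher in P/R cells alone (log2 0.21, adjusted p = 0.0457), a call lost in 10 of 16 settings, and GINS3 passed in neither line (log2 -0.06 and -0.01).

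Of the other activators, MCM10, which bridges the helicase and polymerase alpha, passed as higher in parental cells (log2 0.20, limma adjusted p = 0.0189) and not in P/R cells (log2 0.11, adjusted p = 0.137). The MCM10 call was lost without parental untreated library 1 or either treated parental library, at adjusted p up to 0.103. CDC45, the helicase cofactor, had log2 changes of 0.01 and 0.02, and DBF4, the activating subunit of the CDC7 kinase, of -0.07 and -0.12, with no pass. CDC7 itself read 15.1 and 14.0 FPKM untreated and 15.8 and 17.8 FPKM treated in parental cells (log2 0.20, adjusted p = 0.0701), and 12.5 and 12.6 FPKM against 13.2 and 13.4 FPKM in P/R cells (log2 0.08). CDC7 libraries did not overlap within either line. The parental 95% interval was 0.01 to 0.38, and the call missed the adjusted threshold, though it passed at 0.0424 without parental treated library 1.

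Polymerase subunits also parted within their enzymes. POLE2, an accessory subunit of the leading strand polymerase epsilon, had the largest change of all 44 genes in both lines. It was at 20.8 and 21.4 FPKM in untreated and 11.7 and 12.4 FPKM in treated parental libraries, and at 17.3 and 16.2 FPKM against 8.98 and 11.2 FPKM in P/R libraries. POLE2 fell to 0.572 of its untreated mean in parental cells (log2 -0.76, SE 0.098, limma adjusted p = 0.000225) and to 0.602 in P/R cells (log2 -0.68, adjusted p = 0.000519). Every treated library lay below every untreated library of either line.

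POLE, the catalytic subunit of the same enzyme, moved the other way. It read 45.6 and 35.8 FPKM untreated and 46.3 and 50.5 FPKM treated in parental cells, and 39.9 and 33.1 FPKM against 51.9 and 46.9 FPKM in P/R cells. POLE rose in P/R cells (log2 0.43, SE 0.12, limma adjusted p = 0.0161), a call lost in 3 of 16 settings, among them without P/R untreated library 2 or treated library 1, at adjusted p up to 0.116, and did not pass in parental cells (log2 0.25, adjusted p = 0.107). Untreated replicates stood wide apart, and yet no untreated library reached a treated one of its line.

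In polymerase alpha and primase, which lay the first primer, POLA2 and PRIM1 differed. POLA2, the accessory subunit, went from 64.1 and 60.1 FPKM to 71.8 and 73.5 FPKM in parental cells and from 56.8 and 52.4 FPKM to 70.9 and 73.8 FPKM in P/R cells. It rose by log2 0.22 (limma adjusted p = 0.0104; up to 0.0730 without parental untreated or treated library 2) and 0.40 (SE 0.058, adjusted p = 0.000552). The treated libraries of both lines met near the same level, above all 4 untreated ones.

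PRIM1, the catalytic primase subunit, read 40.4 and 44.8 FPKM in untreated and 35.6 and 33.1 FPKM in treated parental cells, and 40.8 and 37.8 FPKM against 36.7 and 39 FPKM in P/R cells. It fell in parental cells (log2 -0.30, limma adjusted p = 0.00694; up to 0.0553 without parental untreated or treated library 2) and did not pass in P/R cells (log2 -0.05, adjusted p = 0.577), where the pairs overlapped. The PRIM1 difference in response was 0.25 with a 95% interval of 0.02 to 0.48 and an adjusted p of 0.476.

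POLD1, the catalytic subunit of the lagging strand polymerase delta, rose in both lines (log2 0.20, limma adjusted p = 0.0158, and 0.29, adjusted p = 0.00316), though the parental call was lost without parental untreated or treated library 2, at adjusted p up to 0.116. POLA1, the catalytic subunit of polymerase alpha, and PRIM2, the large primase subunit, passed in neither. PRIM2 ranged from 88.6 to 157 FPKM over the 8 libraries with replicates up to 36.7 FPKM of SD apart, the noisiest of the set. Near-copies of the gene elsewhere in the genome may have shared its reads, which was not tested.

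More clamp genes rose than fell. Of the 10, 5 rose and 1 fell in parental cells and 6 rose and 0 fell in P/R cells, with median log2 changes of 0.22 and 0.21. Over all tested genes 25.7% rose and 24.7% fell in parental cells, and 22.5% and 21.8% in P/R cells. At an unadjusted p under 0.05 limma likewise gave 0 falls in P/R cells. RFC5, one of the 5 subunits of the loader that places PCNA on DNA, had the largest rise of the 44 genes. It was at 28.1 and 26.8 FPKM in untreated and 43.9 and 44.6 FPKM in treated parental cells, and at 28.0 and 26.8 FPKM against 40.1 and 40.7 FPKM in P/R cells. The rise was 1.61-fold (log2 0.67, SE 0.056, limma adjusted p = 1.84e-05) and 1.47-fold (log2 0.54, adjusted p = 8.28e-05), and the 4 untreated libraries were alike across lines.

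The other loader subunits had smaller values of change. RFC3 passed as higher in both lines (log2 0.23 and 0.18) and RFC2 in P/R cells alone (log2 0.21), each near the threshold: limma adjusted p was 0.0155 and 0.0493 for RFC3 and 0.0269 for RFC2. The P/R calls of RFC3 and RFC2 were lost in 12 and 5 of 16 alternative settings, and the parental call of RFC3 in 2, without parental untreated or treated library 1, at adjusted p up to 0.0977. RFC1, the large subunit, passed in neither line (log2 0.21 and 0.20). RFC4 read 58.6 and 57.5 FPKM untreated and 55.0 and 51.2 FPKM treated in parental cells, and 40.9 and 41.4 FPKM against 35.2 and 42.4 FPKM in P/R cells, and did not pass (log2 -0.13 and -0.09). RFC4 pairs overlapped between treatments in P/R cells and not in parental cells, and all 4 P/R libraries lay below all 4 parental ones.

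LIG1, the ligase that seals Okazaki fragments, rose more in value in P/R than in parental cells. It went from 49.5 and 47.5 FPKM to 58.4 and 59.8 FPKM in parental cells and from 45.6 and 44 FPKM to 70.1 and 61.1 FPKM in P/R cells. The log2 changes were 0.28 (SE 0.068, limma adjusted p = 0.00724) and 0.54 (adjusted p = 0.000248), and their difference of 0.26, with a 95% interval of 0.04 to 0.47, did not pass (adjusted p = 0.423). P/R cells had the lowest untreated and the highest treated LIG1 libraries.

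PCNA, the clamp itself, rose in both lines by 0.35 and 0.34 on the log2 scale (limma adjusted p = 0.00116 and 0.00176). FEN1, the nuclease that trims flaps ahead of ligation, rose by 0.25 and 0.26 (adjusted p = 0.00234 and 0.00264). DSCC1, part of an alternative clamp loader, read 21.7 and 21.5 FPKM untreated and 19.1 and 18.4 FPKM treated in parental cells, and 22.5 and 20.9 FPKM against 22.1 and 23.1 FPKM in P/R cells. It fell in parental cells (log2 -0.19, adjusted p = 0.0336), a call lost in 5 of 16 settings, those without any 1 of the 4 parental libraries among them, at adjusted p up to 0.147. RPA2, which coats single-stranded DNA, passed in neither line (log2 -0.03 and -0.04).

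The E2F genes split between the activators. E2F2 fell from 9.39 and 9.65 FPKM to 5.76 and 5.87 FPKM in parental cells and from 8.48 and 7.55 FPKM to 6.01 and 4.69 FPKM in P/R cells. That left 0.611 of the untreated mean in parental cells (log2 -0.63, SE 0.11, limma adjusted p = 0.00146) and 0.668 in P/R cells (log2 -0.51, adjusted p = 0.00515). E2F1, the other activator here, rose by 0.34 and 0.37 on the log2 scale (adjusted p = 0.000697 and 0.000584), from group means of 52.4 ± 0.476 and 50 ± 1.21 FPKM to 66.7 ± 3.66 and 64.7 ± 0.0662 FPKM (SD, n = 2 each).

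E2F7, the repressor, was the lowest of the 44 genes per length, at 2.14 and 2.44 FPKM in untreated and 3.22 and 3.48 FPKM in treated parental cells. E2F7 read 2.39 and 1.93 FPKM in untreated P/R cells and 2.87 and 3.57 FPKM treated. It rose by log2 0.40 and 0.42 (SE 0.12, limma adjusted p = 0.0235 and 0.0230), which the added 1 FPKM understates for so low a gene, as the plain ratios were 1.46 and 1.49. Pairs did not overlap, but the calls were lost in 4 and 3 of 15 settings, with adjusted p up to 0.114 and 0.146.

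Among histone supply, chromatin and repair genes, SLBP rose in both lines and TIPIN and UHRF1 fell. SLBP, which binds and processes histone messenger RNA in S phase, went from 117 and 119 FPKM to 157 and 153 FPKM in parental cells and from 109 and 108 FPKM to 138 and 142 FPKM in P/R cells. It rose by log2 0.39 (SE 0.041, limma adjusted p = 6.32e-05) and 0.37 (adjusted p = 0.000133). TIPIN, which steadies stalled forks, went from 28.9 and 29.4 FPKM to 22.0 and 16.9 FPKM in parental cells and from 25.8 and 21.3 FPKM to 18.4 and 15.5 FPKM in P/R cells.

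TIPIN fell by 0.57 on the log2 scale in parental cells (SE 0.13, limma adjusted p = 0.00574) and by 0.45 in P/R cells (adjusted p = 0.0197; up to 0.136 in the 3 settings that lost the call, 2 of them without P/R untreated library 1 or treated library 2). Its replicates were wide apart in 3 of 4 groups and still did not overlap between treatments. UHRF1, which guides maintenance of DNA methylation behind the fork, read 30.8 and 30.6 FPKM untreated and 25.6 and 27.1 FPKM treated in parental cells, and 34.8 and 34.1 FPKM against 27.6 and 28.0 FPKM in P/R cells. It fell by 0.21 (adjusted p = 0.0122; 0.0836 without parental treated library 1) and 0.30 (adjusted p = 0.00265).

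CHAF1B, a subunit of the chromatin assembly factor that places histones on new DNA, rose in both lines (log2 0.33 and 0.36, limma adjusted p = 0.00337 and 0.00252). Its partner CHAF1A passed in P/R cells alone (log2 0.23, adjusted p = 0.0149; parental log2 0.14, adjusted p = 0.0893). The CHAF1A call in P/R cells was lost without untreated library 1 or either treated library of that line, at adjusted p up to 0.0894, and the parental change passed at 0.0463 without treated library 1. UNG, which removes uracil from new DNA, read 94.8 and 95.6 FPKM untreated and 104 and 109.8 FPKM treated in parental cells, and 77.4 and 75.2 FPKM against 85.8 and 84.5 FPKM in P/R cells. UNG rose by log2 0.17 and 0.16 (adjusted p = 0.0145 and 0.0219), calls lost in 2 and 4 of 16 settings at adjusted p up to 0.105 and 0.134. Its 4 P/R libraries were the lowest of the 8 whatever the treatment.

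**Figure D3:**
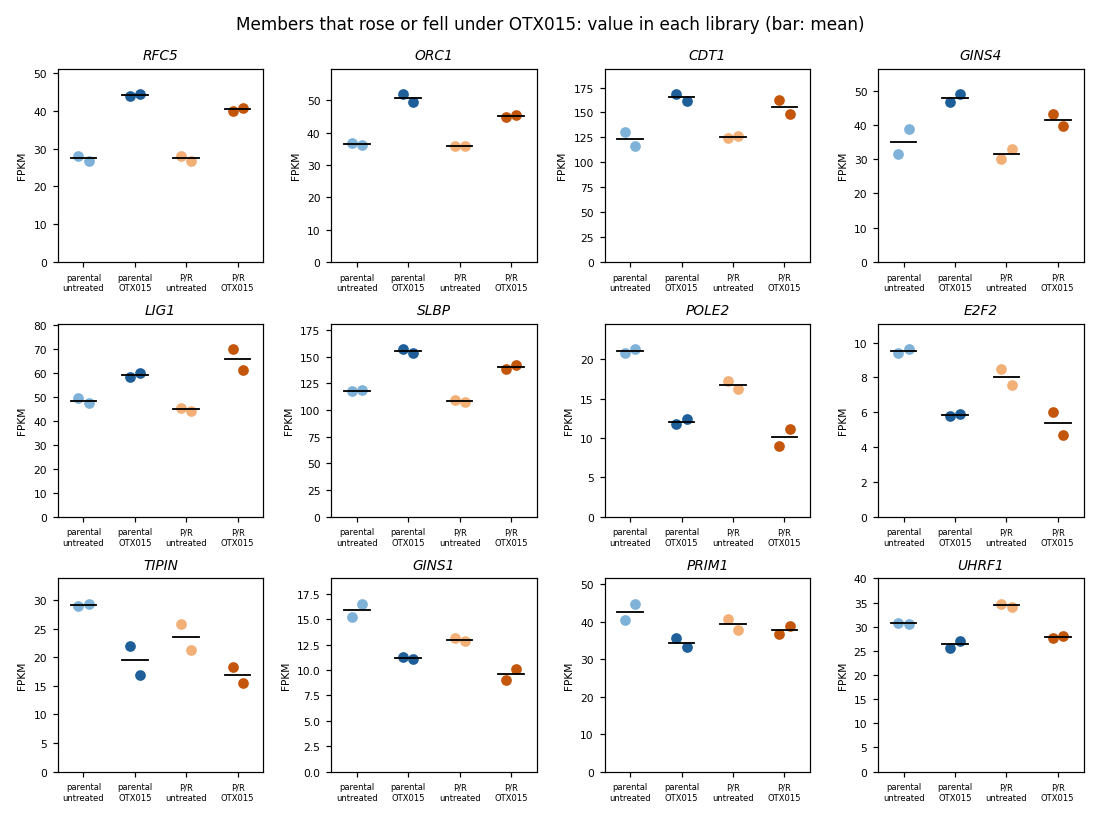
FPKM (y axis, from 0) of 12 members that rose or fell under OTX015, in each of the 8 libraries by group (x axis), with the group mean as a bar. RFC5, ORC1, CDT1, GINS4, LIG1 and SLBP step up in both lines, POLE2, E2F2, TIPIN, GINS1 and UHRF1 step down in both, and PRIM1 passed in parental cells alone.

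Between the lines, the members of the set that passed were lower in P/R cells, with DSCC1 under OTX015 as the exception. Of these calls, 4 of 10 untreated and 3 of 10 treated held in each alternative setting. Untreated, 0 of 44 members were higher and 10 lower in P/R than in parental cells (22.7%), where 11.7% of all tested genes were higher, 11.9% lower and 23.5% either; at an unadjusted p under 0.05 limma gave 1 higher and 18 lower. The 10 were MCM2, MCM3, MCM4, MCM7, CDC6, GINS1, POLA2, POLE2, RFC4 and UNG. Both P/R libraries lay below both parental ones for 30 of 44 members (68.2%), and for 33.0% of all tested genes. The median log2 difference was -0.12 for the members and -0.01 for all tested genes.

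Under OTX015, 9 of 44 were lower in P/R cells (20.5%) and DSCC1 alone was higher, against 11.7% and 12.7% of all tested genes, and 24.4% in either direction. The 9 were MCM3, MCM7, CDC6, ORC1, ORC6, CDC7, RFC4, SLBP and UNG. Both P/R libraries were below both parental ones for 23 members (52.3%, against 32.6% of all tested genes) and above them for 5 (11.4%, against 28.2%). These comparisons use the same libraries as the drug comparisons above and are not independent of them.

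CDC6 showed the largest line difference, with the 4 P/R libraries between 25.1 and 26.3 FPKM and the 4 parental ones between 40.6 and 48.5 FPKM. P/R stood at 0.633 of parental untreated (log2 -0.64, SE 0.056, limma adjusted p = 5.13e-05) and at 0.537 under the drug (log2 -0.87, adjusted p = 7.25e-06). RFC4 stood at 0.709 and 0.731 of parental (log2 -0.49, adjusted p = 0.00224, and -0.45, adjusted p = 0.00346), and UNG at 0.802 and 0.796 (log2 -0.32, adjusted p = 0.00111, and -0.33, adjusted p = 0.000862). CDC6, RFC4 and UNG passed in both comparisons and in each alternative setting that did not add a size threshold.

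MCM3, at 0.834 of parental untreated (log2 -0.26, limma adjusted p = 0.00181), also passed in each of those settings, and at 0.883 under OTX015 (log2 -0.18, adjusted p = 0.0132) it was lost without parental treated library 1 and without a variance trend, at adjusted p up to 0.0771. The untreated differences of MCM4 and MCM7, -0.20 each (adjusted p = 0.00605 and 0.00638), were lost only without P/R untreated library 1, at 0.0510 and 0.0524. Those of MCM2 (-0.15), GINS1 (-0.27), POLE2 (-0.32) and POLA2 (-0.18) passed at adjusted p between 0.0320 and 0.0485 and were lost in 5, 9, 8 and 13 of 16 settings, at adjusted p up to 0.192, 0.190, 0.195 and 0.294.

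Under OTX015 the differences of CDC7 (-0.31), ORC6 (-0.29), ORC1 (-0.17), SLBP (-0.15) and MCM7 (-0.14) passed at limma adjusted p between 0.0204 and 0.0439. They were lost in 3, 6, 12, 7 and 9 of 17 settings, at adjusted p up to 0.140, 0.161, 0.223, 0.141 and 0.148. DSCC1, 0.26 higher (adjusted p = 0.0200), was lost without either treated parental library or treated P/R library 2, at adjusted p up to 0.104.

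CDC6 and RFC4 lie in chromosomal neighbourhoods whose other genes were lower in P/R cells as well. Around each member up to 20 nearest tested genes on either side were taken (fewer near a chromosome end: 37 in all for CDC45, 31 for POLE and 36 for SLBP) in the order of GENCODE release 29, a summary added after the line differences had been seen. The 40 neighbours of CDC6 on chromosome 17 had a median log2 difference of -0.58 untreated and -0.60 under OTX015. The 40 neighbours of RFC4 on chromosome 3 had medians of -0.39 and -0.51. Those were the only 2 of 44 members with a neighbour median under -0.2 in either comparison, and the median over members was -0.01 untreated and -0.02 under the drug.

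UNG, on chromosome 12, had neighbour medians of -0.04 and -0.12, well short of its own difference, and CHAF1B came nearest to the 2 low neighbourhoods with -0.20 and -0.18. CDC6 under OTX015 lay further below parental than its neighbours did. Copy number was not measured, and its part in these differences was not tested.

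**Figure D4:**
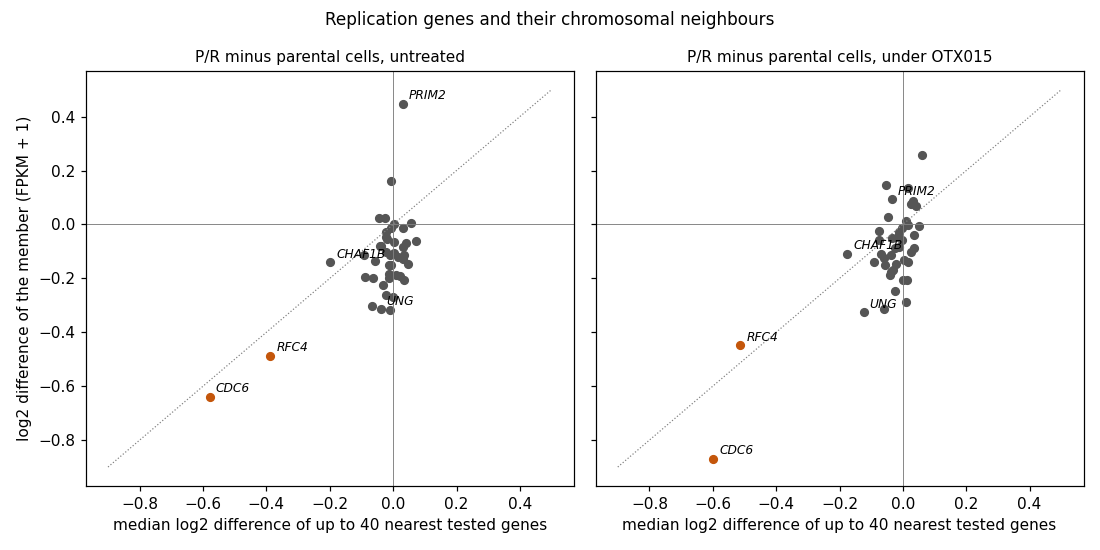
Log2 difference between P/R and parental cells for each of the 44 members (y axis) against the median of its nearest tested genes (x axis; 40 genes, or 31 to 37 for 3 members near a chromosome end), untreated (left) and under OTX015 (right); the dotted line marks equal values. CDC6 and RFC4 (orange) sit apart at the lower left, and the other 42 members have neighbour medians between -0.20 and 0.07.

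Of 61 other replication and S phase genes counted for comparison, 22 rose and 7 fell under OTX015 in parental cells (36.1% and 11.5%), and 22 rose and 4 fell in P/R cells (36.1% and 6.56%). Over all tested genes 25.7% rose and 24.7% fell in parental and 22.5% and 21.8% in P/R cells. The 17 other S phase targets of E2F had 7 rises in parental and 9 in P/R cells with 0 falls in both (0 also at an unadjusted p under 0.05 by limma), led by RRM2, which makes deoxynucleotides, at log2 0.89 and 0.90, and TK1, thymidine kinase, at 0.63 and 0.69. Of the 20 other fork genes 11 rose and 3 fell in each line, with the histone chaperone ASF1B at 0.78 and 0.64 and RNASEH2C at 0.59 and 0.71, while RNASEH2B, a subunit of the same nuclease, fell by 0.43 and 0.61. TIMELESS, the partner of TIPIN at the fork and named here after its values were seen, rose by log2 0.47 and 0.53 where TIPIN fell. Of the 14 other origin genes 4 rose and 3 fell in parental cells and 2 rose and 1 fell in P/R cells, with RECQL4 up by 0.40 and 0.54 and ORC5 down by 0.46 and 0.42. The largest parental change of these was that of ORC2 (log2 -0.56), from 10.2 and 10.2 FPKM to 5.48 and 7.92 FPKM. In P/R cells ORC2 read 10.9 and 9.90 FPKM untreated and 7.33 and 9.43 FPKM treated. Of the 10 other E2F and RB family genes, E2F5 alone passed under OTX015, as lower in parental cells (log2 -0.38, limma adjusted p = 0.0413). Between the lines, 2 of the 61 were higher and 10 lower in untreated P/R cells (3.28% and 16.4%). Over all tested genes the shares were 11.7% and 11.9%. Under OTX015, 1 was higher and 7 were lower (1.64% and 11.5%, against 12.7% and 11.7%). RPA1 was higher in P/R cells, at log2 0.54 untreated and 0.65 under OTX015, with neighbour medians of 0.50 and 0.48.

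The strandedness of the libraries is not stated by the labels, so reads of genes that overlap on opposite strands cannot be told apart. By GENCODE, 7 members overlap a coding gene on the other strand: MCM2, MCM7, GINS2, DBF4, PRIM1, RFC4 and FEN1. Counting any annotated partner, 12 members do.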

How the data were processed

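RNA of 8 cultures was sequenced, and 1 table of coding genes was used. The authors' deposited values were taken as FPKM, from their range and from the submitters' processing notes, which name TopHat2 2.0, Cufflinks 2.0 and hg19; the unit is not written in the file. The 8 libraries share 1 distribution of values (sorted values differ by at most 0.136%), so they were quantile normalized before deposit, and depth is unknown. Neither RNA selection nor strand is stated by the labels.

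Values were analysed as log2(FPKM + 1) with limma 3.58.1 in R 4.3.3: 4 group means, eBayes with a variance trend (4 residual and 5.23 prior degrees of freedom), 5 contrasts, and Benjamini-Hochberg adjustment over 11255 genes at or above 1 FPKM in at least 2 libraries. Intervals are 95%. On simulated data, 28% of planted log2 changes of 0.25, 98% of 0.5 and 100% of 1 were recovered for OTX015 in parental cells (11038 genes), and 3%, 62% and 96% for the difference in response (11033 genes).

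The members and lists were chosen with earlier results of these data known. Values of every library are given for the largest passing rise and fall of each role, up to 6 rises and 6 falls in each drug comparison, up to 5 and 5 in each line comparison, and MCM2 to MCM7. Up to 4 genes were named per other list, apart from ORC3, ORC4 and RPA1, which were named after their values were seen. Promoter windows came from RefSeq (GRCh38.p14), and gene order and overlaps from GENCODE release 29, joined by gene and not by position. Alternatives changed the pseudocount, filter, centring, variance trend, samples fitted, block, minimum change and each library in turn.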

Additional observations from a re-analysis of the deposited data

How the results depend on the processing

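No value changed sign among called members in any alternative. With pseudocounts of 0.1 or 5, median centring or a mean of at least 5 FPKM, each count of members called stayed within 1.5 times its value in the report. Median centring could change little, because the libraries had already been quantile normalized. A minimum log2 change of 0.5 left 1 rise and 3 falls in parental cells, 2 rises and 2 falls in P/R cells, 1 gene lower in untreated P/R cells, and 0 higher and 1 lower under OTX015, because fewer members are that large. Without a filter on low values 1 member (UHRF1) was higher in untreated P/R cells. Under OTX015, genes lower in P/R cells numbered 4 without a variance trend and 5 when only the groups compared were fitted; the cause was not tested. Leaving out each library in turn gave 12 to 18 rises and 8 to 11 falls in parental cells, and 13 to 18 rises and 5 to 8 falls in P/R cells. It gave 4 to 10 lower members in untreated P/R cells, the lowest without P/R untreated library 1, and 0 to 1 higher and 4 to 8 lower under OTX015, the lowest without either treated parental library; the lone sample left is then assumed to vary like the other groups. Calls of 16 of 29, 16 of 26, 4 of 10 and 3 of 10 members held in each setting without a minimum change.

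Same-numbered libraries of different groups did not deviate together (correlations of -0.12 to 0.104), so no strong effect shared by number was seen. These correlations cannot show whether same-numbered cultures were handled as pairs. With the replicate block, 18 members rose and 11 fell in parental cells, 18 rose and 7 fell in P/R cells, 0 were higher and 8 lower in untreated P/R cells, and 1 was higher and 7 lower under OTX015; the crossed pairing of the last comparison, added after the data were seen, gave 1 and 7. Depth is unknown, and with 2 libraries a group small changes can be missed. The simulated recovery of log2 changes of 0.25 came from data with far fewer changed genes than the drug comparisons. That share does not carry over to them.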
